A study of Rattus norvegicus with 26 samples.

Results

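Livers taken 12 h after removal of about 2/3 of the liver (2/3PH, partial hepatectomy) were compared with normal rat livers on miRNA arrays. The comparison sets the 3 arrays titled 2/3PH 12H against the 3 titled normal. Its members are the miRNAs that the scanner software detected on all 3 arrays of either group or of both, 128 of the 677 miRNAs on the array. Tests were run over 144 miRNAs, which met that condition in any of the 9 groups of the series.

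Each array held total RNA from the right lobe of 1 male Sprague-Dawley rat, so replicates are separate rats. The series has 26 arrays: normal liver, and remnant liver at 6, 12, 24 and 36 h after 2/3PH or after 1/3PH, in which the left lateral lobe alone was removed. Normal livers came from rats without hepatectomy according to the protocol text, although their protocol label reads sham. The 12 h rats m3, m7 and m12B share the title time of 12 h, while the source names give 12, 13 and 14 h.

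miRNAs are short RNAs that guide silencing proteins to messenger RNAs, mainly by pairing of the seed, the bases near their 5′ end, and miRNAs with the same seed share many targets. After partial hepatectomy the remaining hepatocytes leave quiescence and enter the cell cycle, and the hours before DNA synthesis are known for broad changes in transcription. In liver, miR-122 is the best known hepatocyte miRNA, and miR-21 is a much studied miRNA of regenerating tissue.

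The sequences of the miRNAs that passed the test, and of measured relatives with the same seed, show which of them could read the same target sites. Of 16 looked up, 14 matched RefSeq mature miRNAs of build GRCr8, and miR-30b-5p and miR-30d are named only. Capitals mark bases 2 to 8, the seed, and the lines run 5′ to 3′. The miR-29 family shares the seed AGCACCA.
miR-29b: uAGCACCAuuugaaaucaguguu
miR-29c: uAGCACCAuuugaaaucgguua
miR-29a: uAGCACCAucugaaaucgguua
Next come the miR-101 pair, which differ at 1 base outside the seed.
miR-101a: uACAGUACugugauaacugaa
miR-101b: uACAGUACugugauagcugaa
Relatives of miR-30e follow, and miR-30e differs from miR-30a at 1 base outside the seed.
miR-30e: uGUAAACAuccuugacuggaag
miR-30a: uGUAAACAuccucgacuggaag
miR-30c: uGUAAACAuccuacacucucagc
The miR-19 pair also differ at 1 base outside the seed.
miR-19b: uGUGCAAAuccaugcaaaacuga
miR-19a: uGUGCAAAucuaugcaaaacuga
The remaining miRNAs that passed the test share no seed with the others printed here. Relatives that were not measured were not looked up.
miR-192: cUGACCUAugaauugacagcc
miR-22: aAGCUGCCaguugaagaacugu
miR-338: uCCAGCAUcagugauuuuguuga
miR-1224: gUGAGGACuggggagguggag
Among the miR-29 members, miR-29b and miR-29c differ at 3 of 22 compared bases and miR-29a and miR-29c at 1, none in the seed. Whether close relatives share signal on a probe was not tested.

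At 12 h after 2/3PH, 9 miRNAs were lower and 1 was higher than in normal liver by limma at an adjusted p under 0.05. These are 6.25% and 0.694% of the 144 miRNAs tested. Lower were miR-29b, miR-29c, miR-101a, miR-101b, miR-30e, miR-19b, miR-192, miR-22 and miR-338, and higher was miR-1224. miR-338 was detected on 0 of the 12 h arrays and is a member through normal liver alone, where it had to be the higher, so its call is no support for a decrease. The decreases of the other 8 ran from 1.26-fold to 2.01-fold, while the median log2 difference over the 128 members was 0.02. Without the test, 23 members were lower on all 12 h arrays than on any normal array (16.0% of those tested) and 11 were higher on all of them (7.64%). Of the 117 members detected on every array of both groups these were 21 and 10, the others having entered through 1 group alone. At an unadjusted p under 0.05, 20 were lower and 6 higher.

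The calls rested on few arrays: all 10 ended, leaving 0, when normal 2, normal 3 or m7 was left out, and when slide was a fixed block, where adjusted p ran from 0.104 to 0.264. The log2 differences under that block were miR-29b -1.07, miR-29c -0.94, miR-101a -0.99, miR-101b -0.71, miR-30e -0.52, miR-19b -0.74, miR-192 -0.42, miR-22 -0.48 and miR-1224 0.58, with miR-338 at -1.01 against floors. They ended likewise with no scaling, with the percentile taken over all probes, with normexp background correction, with the deposited values and in a fit of these 6 arrays alone, while quantile normalization gave 4 higher and 9 lower, without miR-192. For the 8 lower without miR-338, log2 differences of -1.01 to -0.34 were the same in the fit of 6 arrays, -1.27 to -0.60 with no scaling and -1.33 to -0.66 with the percentile over all probes, where the median of all members also moved down, -1.41 to -0.19 with the deposited values and -0.60 to -0.08 with normexp. miR-1224 gave 0.63, 0.37, 0.31, 0.65 and 0.45 in these. With scan day as a fixed block miR-1224 (log2 0.59), miR-19b (-0.65) and miR-22 (-0.46) lost their calls (adjusted p = 0.0728 each). With the brightest probe miR-19b (-0.62), miR-22 (-0.46) and miR-338 (-0.03) did. With the software's gene signal miR-101a (-1.14) and miR-19b (-0.63) did. With a filter of detection on at least 1 array only miR-29b, miR-101a, miR-101b and miR-30e kept theirs, with the log2 differences unchanged. Over miRNAs detected on every array, miR-101a and miR-338 were not among those tested.

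**Figure D1:**
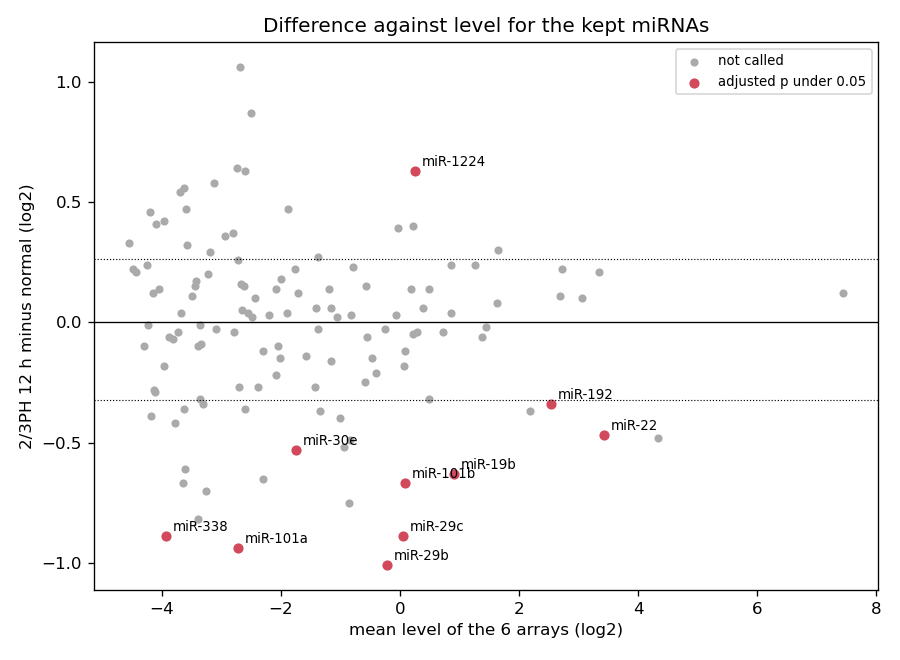
Log2 difference between 12 h after 2/3PH and normal liver against mean log2 level, for the 128 members (3 arrays a group). Red points are the 10 that passed the test, dotted lines are the 0.8-fold and 1.2-fold limits, and the differences span -1.01 to 1.06.

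Levels are log2 of the array signal relative to that array's 75th percentile over 109 probes well above background on all arrays, so 0 is that percentile. Detected miRNAs numbered 140, 151 and 151 on normal 1, 2 and 3 and 136, 137 and 142 on m3, m7 and m12B. Total gene signal was 49551.5, 44858.1 and 68366.3 on the normal arrays and 40879.5, 51796.1 and 40716.2 on the 12 h arrays. Scan day 1 held normal 1 on slide 1 and m3 and m7 on slide 2. Slide and operation therefore cannot be told apart within that day. Scan day 3 held normal 2 and m12B, which lay on the same slide. Each within-day difference from normal liver rests on 1 normal array, and that of scan day 3 also on 1 array at 12 h. Normal 3 was scanned on day 2 without a 12 h array. Of the members, 117 were detected on every array of both groups, 7 on all normal and only some 12 h arrays, 3 on all normal and no 12 h arrays, and 1, miR-429, on all 12 h and 2 of 3 normal arrays. A miRNA that entered through 1 group was bound to differ in detection.

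The miR-29 family, known for targeting collagen and other matrix messages, was lower on every 12 h array. miR-29b read -0.20, 0.74 and 0.34 on normal 1, 2 and 3 and -0.89, -0.91 and -0.35 on m3, m7 and m12B, the order used for all values below. Every 12 h value lay below every normal value, with normal 1 the lowest of the normal livers and m12B the highest of the 12 h livers. The log2 difference was -1.01 ± 0.21 (SE, n = 3 and 3), a 2.01-fold decrease with adjusted p = 0.015. Each SE given with ± comes from the fit of all 26 arrays in 9 groups, not from the compared arrays alone. The SD of miR-29b was 0.47 in normal liver and 0.32 at 12 h, and limma on these 6 arrays alone gave adjusted p = 0.174. miR-29c read 0.37, 0.55 and 0.58 in normal liver and -0.45, -0.51 and -0.22 at 12 h. It fell 1.86-fold (log2 -0.89 ± 0.236, adjusted p = 0.0274), and the gap between groups exceeded the spread within either. miR-29a, with the same seed, read 2.47, 2.24 and 2.38 against 2.00, 1.97 and 2.01. It did not pass the test at -0.37 ± 0.227 (adjusted p = 0.423), though its groups did not overlap. That SE pools the spread of all 9 groups. The SD of miR-29a was 0.11 in normal liver and 0.03 at 12 h. At 12 h after 1/3PH its SD was 0.7, and the array m5m read 0.83 there. A test of whether miR-29a moved less than its relatives was not made.

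Within scan day 1 the difference of miR-29b was -0.70 and within scan day 3 it was -1.09. miR-29c gave -0.84 and -0.77 on these days. All 3 measured family members, those among the 128, were lower, 2 passed the test and the list median was -0.89, between -1.21 and -0.57 under the other scalings, blocks and within-day values. In GRCr8 the hairpin Mir29b1 lies 291 bases from Mir29a on chromosome 4, and Mir29b2 lies 447 bases from Mir29c at chr13:109099359-109099446. The mature miR-29b does not tell these copies apart.

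The miR-101 pair, background regulators of the histone methyltransferase Ezh2, were both lower. miR-101a read -2.64, -1.94 and -2.19 in normal liver and -3.35, -3.43 and -2.81 at 12 h. No values overlapped, and the decrease was 1.91-fold (log2 -0.94 ± 0.206, adjusted p = 0.015). For miR-101b the levels were 0.10, 0.54 and 0.62 against -0.16, -0.55 and -0.03. All normal values lay above all 12 h values, with normal 1 the nearest to them, and the decrease was 1.59-fold (-0.67 ± 0.162, adjusted p = 0.0192). On scan days 1 and 3 miR-101a differed by -0.74 and -0.86, and miR-101b by -0.46 and -0.57. The list median was -0.80, with 2 of 2 measured members called lower. It was -0.25 with normexp, its value nearest 0 among the settings. There miR-101a gave -0.08 (adjusted p = 0.938) and miR-101b -0.43 (adjusted p = 0.381).

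miR-30e belongs to a family with broad roles in differentiation. It read -1.69, -1.36 and -1.37 in normal liver and -2.05, -2.19 and -1.78 at 12 h. These groups did not overlap, and the decrease was 1.45-fold (-0.53 ± 0.126, adjusted p = 0.0192). Within scan days 1 and 3 it was -0.43 and -0.41. With normexp miR-30e gave -0.09 (adjusted p = 0.938). Of the 8 measured arms of the miR-30 family, 1 passed the test, 6 were negative and 2 positive, with a median of -0.19 that turned to 0.04 with normexp. Among those not called, miR-30a gave -0.21 (adjusted p = 0.37), the other arm miR-30b-3p gave 0.54 (adjusted p = 0.365), and miR-30a was 0.00 with quantile normalization. The hairpin of miR-30e overlaps Nfyc, a gene for a subunit of a CCAAT-binding factor.

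miR-19b, part of the growth-promoting cluster of miR-17 and miR-92a, was also lower. It read 0.97, 1.33 and 1.37 against 0.72, 0.34 and 0.69, with m7 the lowest. The decrease was 1.55-fold (-0.63 ± 0.188, adjusted p = 0.0454), the weakest call of the 10. Within scan days 1 and 3 it was -0.44 and -0.63. Its partner miR-19a, whose hairpin lies 220 bases from Mir19b1, read -4.01, -2.44 and -2.51 against -3.58, -4.22 and -3.63. The groups overlapped through normal 1, and the difference of -0.82 (adjusted p = 0.115) was 0.11 on scan day 1 and -1.20 on scan day 3. The m7 value of miR-19a is a floor. Without normal 1, miR-19a passed as lower at -1.34 (adjusted p = 0.000879).

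The clusters of miR-17 and miR-92a, miR-106a and miR-363, and miR-106b and miR-25 had 9 measured members, of which 0 were called higher, 1 lower and 8 neither, and the median was -0.03. miR-106b, for which the study named a cluster, read -2.01, -1.97 and -1.91 against -2.28, -2.12 and -2.16, lower on every 12 h array but not past the test at -0.22 ± 0.15 (adjusted p = 0.464). miR-93 gave -0.01 (adjusted p = 0.965) and miR-25 gave 0.14 (adjusted p = 0.727). miR-92a, a member of related clusters, gave 0.04 (adjusted p = 0.93). Of the miRNAs the study's text names, 6 were measured, 1 (miR-101a) was called lower, and the median was 0.02. The list mixes miRNAs the study picked on these samples with others, such as miR-23b, that it cites from other work, and is not independent evidence.

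miR-192, a liver-enriched miRNA used here as a hepatocyte marker, was lower by a small amount. Levels were 2.58, 2.85 and 2.69 in normal liver and 2.41, 2.30 and 2.40 at 12 h. The groups did not overlap, and the decrease was 1.26-fold (-0.34 ± 0.091, adjusted p = 0.0274). It was -0.23 and -0.45 within scan days 1 and 3. With quantile normalization miR-192 gave -0.14 (adjusted p = 0.452), with the deposited values -0.19 (0.624) and with no scaling -0.60 (0.744). miR-122, the leading hepatocyte miRNA, read 7.49, 7.21 and 7.42 against 7.55, 7.58 and 7.36. The groups overlapped, with a difference of 0.12 (adjusted p = 0.644), which was -0.15 with no scaling and 0.00 with quantile normalization. Of 4 measured hepatocyte markers, 1 was called lower and 0 higher, with a median of 0.00. Their summed level relative to the percentile was 188.1, 158.21 and 180.63 in normal liver and 194.55, 198.16 and 171.96 at 12 h. miR-122, the most abundant of them, sets most of this sum.

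miR-22, a widely expressed miRNA, read 3.73, 3.49 and 3.75 in normal liver and 3.37, 3.13 and 3.08 at 12 h. All 12 h values were lower, and the decrease was 1.38-fold (-0.47 ± 0.134, adjusted p = 0.0394). Scan days 1 and 3 gave -0.48 and -0.41. miR-338, whose hairpin overlaps the gene Aatk, was detected on 3 normal arrays and on 0 of 3 at 12 h. It read -3.32, -3.53 and -3.61 in normal liver, and its 12 h values of -4.22, -4.22 and -4.70 are the arrays' floors. The fit's -0.89 ± 0.239 (adjusted p = 0.0274) is therefore a distance to floors, and no fold is given. With the brightest probe miR-338 gave -0.03 (adjusted p = 0.963), and the sign turned to 0.05 with normexp.

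miR-1224 was the single miRNA called higher. Its hairpin lies inside Vwa5b2 at chr11:93811291-93811375 on the minus strand. Levels were 0.19, -0.24 and -0.16 in normal liver and 0.64, 0.69 and 0.35 at 12 h. The 12 h values were all above the normal ones, and the increase was 1.55-fold (0.63 ± 0.17, adjusted p = 0.0274). It was 0.48 within scan day 1 and 0.59 within scan day 3.

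**Figure D2:**
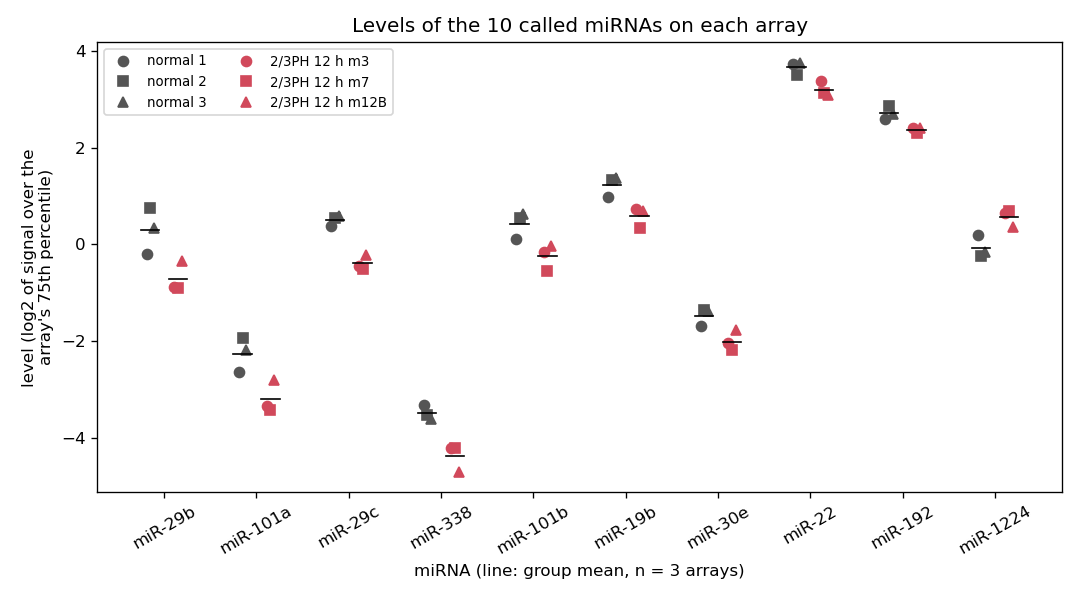
Log2 levels of the 10 called miRNAs on each of the 3 normal arrays (grey) and the 3 arrays taken 12 h after 2/3PH (red), with group means as lines. The groups do not overlap for any of them, though the 12 h points of miR-338 are floors, and miR-29c, for example, spans 0.37 to 0.58 in normal liver and -0.51 to -0.22 at 12 h.

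By ratio of group means, 26 members were under 0.8-fold and 22 over 1.2-fold, which together is 37.5%, and 38 of them did not pass the test. Of these 48, 7 had a value at a floor. They include miR-338 and miR-362* under 0.8-fold, whose 12 h values are all floors, and miR-455* over 1.2-fold, with 5 of its 6 values at floors. For the 3 detected on all normal and no 12 h arrays, miR-338, miR-362* and miR-331, no fold is given. miR-362* read -4.34, also a floor, on normal 1 and did not pass the test (adjusted p = 0.535), though miR-362* passed as lower with a floor of 1 signal unit (adjusted p = 0.00408) and with the deposited values (adjusted p = 0.0123). It is a member through normal liver alone, so these calls are no support for a decrease.

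miR-21, which is linked to proliferation in many tissues, read 4.30, 4.88 and 4.52 in normal liver and 4.46, 3.64 and 4.16 at 12 h. The groups overlapped, m7 was the lowest, and the difference of -0.48 ± 0.187 did not pass the test (adjusted p = 0.144). Without m3 it passed as lower, at -0.67 (adjusted p = 0.0463). Without m7 the difference was -0.26 (adjusted p = 0.627) and without normal 2 it was -0.32 (adjusted p = 0.505). Within scan days 1 and 3 miR-21 gave -0.25 and -0.73.

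The let-7 family, which restrains growth in many cells, had 8 measured members. All 8 differences were positive, from 0.08 to 0.23, none passed the test, and the median of 0.15 became -0.11 with no scaling and -0.17 with the percentile over all probes. Within scan days 1 and 3 it was 0.06 and 0.16. let-7a read 3.33, 3.17 and 3.21 against 3.41, 3.55 and 3.38, higher on every 12 h array (0.21, adjusted p = 0.187). let-7e gave 0.23 (adjusted p = 0.37) and let-7f 0.10 (adjusted p = 0.569). With quantile normalization let-7a (0.23, adjusted p = 0.0313) and let-7e (0.47, adjusted p = 0.0472) passed as higher. Relative to the median of all members, the family's median was 0.13 and, with normexp, -0.01.

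The other growth-related families gave no call in the fit of all arrays. In the family of miR-15, miR-16 and miR-195, 5 measured members had a median of -0.10. miR-15b read 0.23, -0.09 and -0.10 against 0.22, 0.60 and 0.43 (0.40, adjusted p = 0.0992) and passed as higher without normal 1 (0.51, adjusted p = 0.0475) or without the second 24 h array after 2/3PH (0.40, adjusted p = 0.0363), and miR-16 gave 0.30 (adjusted p = 0.515). miR-34a, a miRNA induced by p53 and the 1 measured member of its family, read -2.17, -2.07 and -2.09 against -1.37, -1.69 and -1.88. All 12 h values were higher, but 0.47 ± 0.215 did not pass the test (adjusted p = 0.242). The clusters of miR-23, miR-27 and miR-24 had 5 measured members and a median of -0.04, with miR-23b at 0.24 (adjusted p = 0.365) and miR-27a at -0.25 (adjusted p = 0.37), each without overlap between groups. For the 2 members of the miR-26 family the median was -0.03 (miR-26a -0.02, miR-26b -0.04), and for the family of miR-103 and miR-107 it was -0.02, with miR-107 at -0.06 (adjusted p = 0.843). The families of miR-10, miR-99, miR-100 and miR-125 had 6 measured members, 5 of them positive, with a median of 0.31 that was -0.01 with the percentile over all probes. Their largest difference, 0.87 for miR-125a-3p (adjusted p = 0.493), was 0.32 on scan day 1 and 1.89 on scan day 3, and miR-99a gave 0.24 (adjusted p = 0.47).

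In the family of miR-148 and miR-152, 2 members were measured. miR-148b-3p is a member through normal liver alone, where it had to be the higher, so its values below are no support for a decrease and no median is given. It read -3.52, -2.96 and -3.45 against -4.19, -4.12 and -3.63, was detected on 2 of 3 12 h arrays and gave -0.67 (adjusted p = 0.115). With scan day as a fixed block miR-148b-3p passed as lower at -0.64 (adjusted p = 0.0304), as it did without the arrays of scan day 3, an alternative chosen after seeing the data, at -0.67 (adjusted p = 0.0371). The single measured member of the miR-181 family, miR-181a, gave -0.10 (adjusted p = 0.828), and of the family of miR-130 and miR-301, miR-130a, 0.15 (adjusted p = 0.569), which with quantile normalization passed as higher at 0.38 (adjusted p = 0.0472). With no scaling miR-130a was -0.12, and within scan days 1 and 3 it was -0.09 and 0.32. No member of the cluster of miR-221 and miR-222, 4 arms of which are on the array, was kept, since miR-221 was detected on 2 of 3 arrays in each group.

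**Figure D3:**
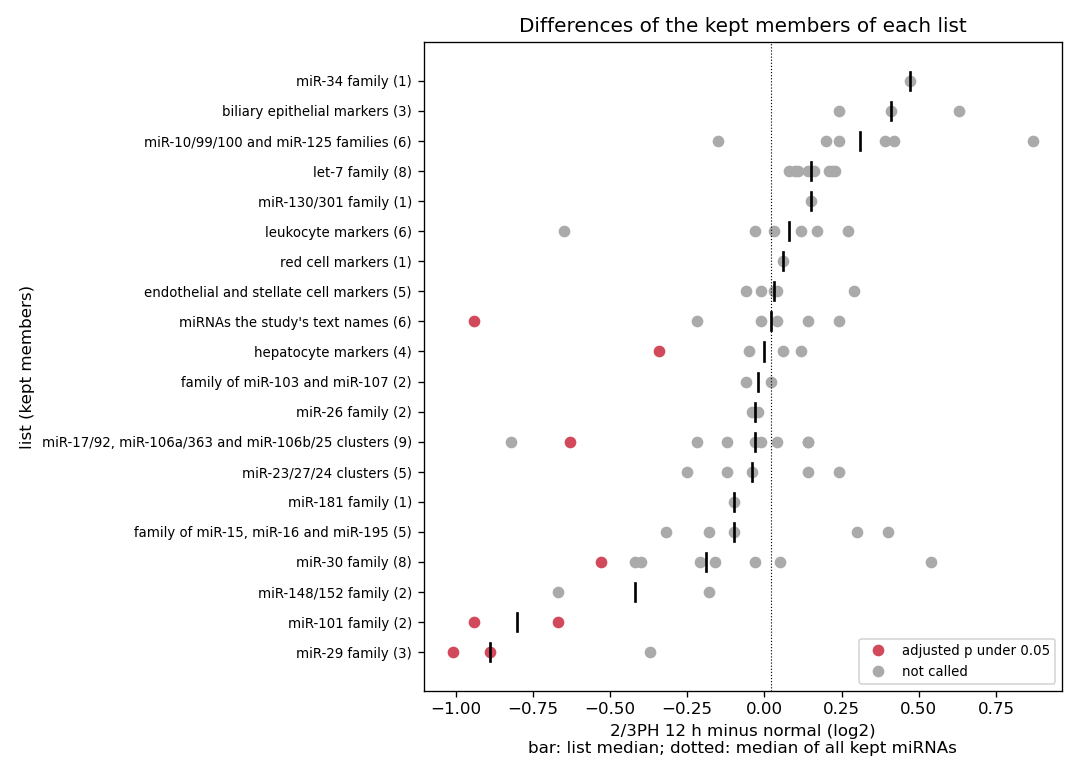
Log2 differences between 12 h after 2/3PH and normal liver for the kept members of each list, with the list median as a bar and the number of members in brackets. Red points passed the test, and the miR-29 and miR-101 medians are -0.89 and -0.80 against 0.02 for all members (dotted).

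Markers of other cell types gave no call. Fewer cells of a type and less RNA per cell cannot be told apart in whole tissue. For leukocytes, 6 markers were measured of 12 on the array, with a median of 0.08 and summed levels of 1.28, 1.40 and 1.30 against 1.08, 1.57 and 1.43. miR-142-3p, a marker of blood cells, read -2.23, -1.68 and -2.03 against -3.24, -2.48 and -2.17 (-0.65, adjusted p = 0.175), and miR-146a, the leukocyte marker highest here, gave 0.27 (adjusted p = 0.483). Red cells had 1 measured marker, miR-451, at -1.04, -1.30 and -1.22 against -1.94, -0.35 and -1.08 (0.06, adjusted p = 0.944). The summed red cell level was 0.26 on m3 and 0.78 on m7, outside the normal range of 0.41 to 0.49 on both sides. Endothelial and stellate markers, 5 measured, had a median of 0.03, with miR-126 at -0.06 (adjusted p = 0.917) and miR-214 at 0.29 (adjusted p = 0.586). Their summed level was 4.61, 3.78 and 3.74 against 3.85, 4.13 and 3.93.

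Biliary markers, all of the miR-200 family of epithelial miRNAs, had 3 measured members. miR-429 is a member through the 12 h group alone, where it had to be the higher, and read a floor on normal 3, and miR-200a has 3 of its 6 values at floors, so no median is given. miR-200b, the highest of them, read -2.50, -2.64 and -3.62 against -2.19, -2.30 and -2.37, higher on every 12 h array but not past the test (0.63, adjusted p = 0.236). Within scan days 1 and 3, which do not hold normal 3, the difference of miR-200b was 0.25 and 0.27. A summed level is not given either, since it would include miR-429 and miR-200a. The part of these markers in the calls was not tested. None of the 12 arms marking muscle and nerve was kept, and 11 were detected on none of the 6 arrays.

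The same miRNAs in other groups place 12 h in the series. These comparisons share the normal livers, so values are set side by side. At 12 h after 1/3PH, miR-29b differed from normal liver by -0.97 (adjusted p = 0.0117), miR-29c by -1.03 (0.0117) and miR-192 by -0.41 (0.0117), all past the test. miR-101a differed by -0.68 (adjusted p = 0.0564), miR-101b by -0.48 (0.0804), miR-30e by -0.41 (0.0564), miR-19b by -0.62 (0.0564), miR-22 by -0.23 (0.271) and miR-1224 by 0.36 (0.17). For miR-338, detected on 1 of 3 of these arrays, 2 values are floors, so its -0.37 (0.328) depends on floors and is no fold. The weak array m5m weighs on these values: miR-29c read -1.22 on it and -0.22 and -0.15 on the others, and miR-101a was at its floor there. Without m5m, an alternative chosen after seeing the data, miR-29b (-0.86, adjusted p = 0.0378) and miR-192 (-0.37, 0.0378) passed, while miR-29c (-0.69, 0.0543) did not. The others gave miR-101a -0.55 (0.174), miR-101b -0.39 (0.233), miR-30e -0.34 (0.169), miR-19b -0.39 (0.233), miR-22 -0.37 (0.0953) and miR-1224 0.29 (0.413). miR-338 gave -0.69 (0.0665), which still depends on a floor. At 6 h after 2/3PH, miR-29b gave -0.90 (adjusted p = 0.0535), miR-29c -0.69, miR-101a -0.62, miR-101b -0.60, miR-30e -0.47, miR-19b -0.55, miR-192 -0.21, miR-22 -0.15, miR-338 -0.24 and miR-1224 0.16, none past the test. miR-338 was detected on 2 of 3 of these arrays. At 24 h after 2/3PH, miR-29b gave 0.05, miR-29c -0.22, miR-101a -0.32, miR-101b 0.10, miR-30e -0.24, miR-19b 0.30 and miR-1224 0.23, also none past the test. miR-192 (-0.29, adjusted p = 0.0374) and miR-22 (-0.40, 0.0439) were lower at 24 h. miR-338 was detected on 0 of 3 arrays there, and no fold is given.

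**Figure D4:**
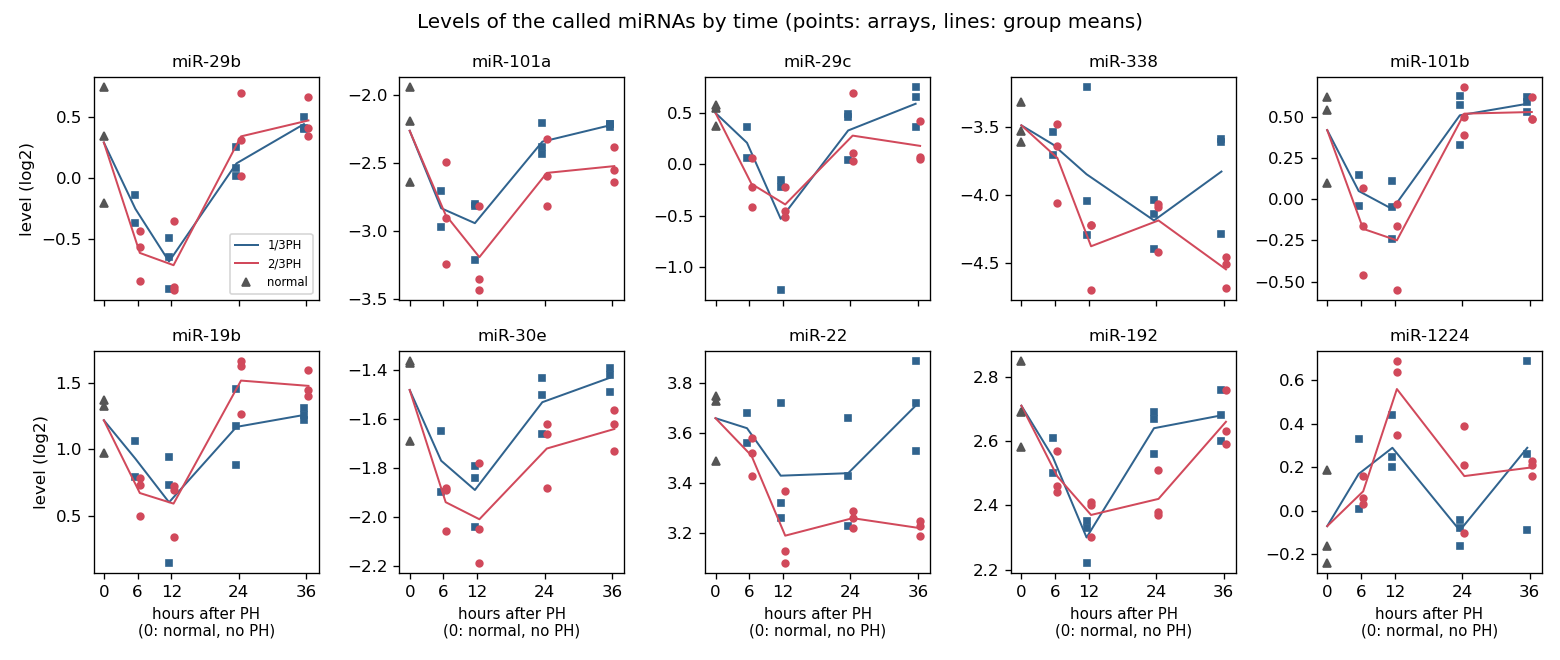
Log2 levels of the 10 called miRNAs in normal liver (triangles at 0) and after 1/3PH (blue) and 2/3PH (red), with points for arrays and lines through group means. Mean miR-29b is -0.71 at 12 h and 0.34 at 24 h after 2/3PH.

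The direct tests asked whether the operation or the time made a difference. Between 2/3PH and 1/3PH at 12 h, limma called 0 of 144 miRNAs (0.0%), with 9 at an unadjusted p under 0.05. miR-29b differed by -0.03 (adjusted p = 0.956), miR-101a by -0.25 (0.752), miR-192 by 0.07 (0.798) and miR-1224 by 0.27 (0.743). The 1/3PH array m5m was weak, with 91 miRNAs detected and a total gene signal of 12434.5, and leaving it out also gave 0, with miR-29b at -0.14 and miR-101a at -0.39 (adjusted p = 0.933 each). Between 12 h and 6 h after 2/3PH, 0 were called (0.0%), with 15 at an unadjusted p under 0.05, and leaving out single arrays gave 0 to 3. A p that misses the threshold does not show that the groups were alike.

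Between 24 h and 12 h after 2/3PH, 17 of 144 were higher at 24 h (11.8%) and 6 were lower (4.17%). This contrast uses the same 12 h arrays as the comparison with normal liver, so a low 12 h value enters both, and a miRNA called lower there is not independent support here. miR-29b read 0.69, 0.31 and 0.02 at 24 h, above its 12 h values, and the increase was 1.05 ± 0.21 in log2 (adjusted p = 0.00223). miR-101b rose by 0.77 (adjusted p = 0.00303), miR-19b by 0.94 (0.00223) and miR-101a by 0.62 (0.0443). The others called lower at 12 h did not pass between these times: miR-29c gave 0.67 (adjusted p = 0.0637), miR-30e 0.29 (0.148), miR-192 0.05 (0.811) and miR-22 0.06 (0.827). miR-338 was not detected at either time, so its test compares undetected levels and no fold is given. miR-21 read 5.21, 5.18 and 5.13 at 24 h, above every 12 h value, and rose by 1.09 ± 0.187 (adjusted p = 0.000943). miR-18a, of the same cluster as miR-17 and miR-92a, was detected on 1 of 3 arrays at 12 h and 3 of 3 at 24 h, where it read -2.89, -3.03 and -3.20. Its 12 h values are all floors, so the fitted 1.34 ± 0.332 (adjusted p = 0.00886) is a distance to floors. By its brightest probe miR-18a was at least 2.23-fold higher at 24 h (adjusted p = 0.0264). In this contrast it entered through the 24 h group alone, where it had to be the higher, so this is no support for an increase. With normexp it did not pass (0.15, adjusted p = 0.994).

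In the other direction, miR-466b read -2.46, -2.23 and -2.57 at 12 h and was detected on 0 of 3 arrays at 24 h. Its 24 h values are floors, against which the fit gave -1.87 ± 0.594 (adjusted p = 0.0348). By its brightest probe miR-466b was at least 2.9-fold lower, which did not pass the test (adjusted p = 0.0744). Of these 2 groups it entered through the 12 h group alone, so this is no support for a decrease. In normal liver it read -1.50, -4.12 and -3.57, so the 12 h values lay inside the normal range (0.64, adjusted p = 0.601). miR-500 read -1.80, -1.43 and -2.51 at 12 h and -3.50, -3.77 and -3.54 at 24 h (-1.69 ± 0.456, adjusted p = 0.0149). miR-511* read -2.92, -2.30 and -2.41 at 12 h and -3.08, -2.94 and -3.66 at 24 h (-0.68 ± 0.198, adjusted p = 0.0222). Neither had differed from normal liver at 12 h by the test, at 0.18 (adjusted p = 0.91) and 0.15 (adjusted p = 0.776).

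All 24 h arrays lay on slide 3, which held no 12 h array, so slide and this difference cannot be told apart. Within scan day 1 the differences were 1.24 for miR-29b, 1.12 for miR-21, 1.18 for miR-18a, -1.94 for miR-466b, -1.99 for miR-500 and -0.61 for miR-511*. The count of 23 fell to 2 with normexp and to 0 with no scaling or with the percentile over all probes.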

How the data were processed

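Single-colour rat miRNA arrays were scanned and extracted by the authors with Agilent Feature Extraction 10.7.3.1. The deposited intensity values are background-subtracted, detrended spot signals, not normalized between arrays. The deposited log2 table was normalized between arrays by the authors by a method that the paper's main text does not state, and is used only as an alternative. Its direction is that of the arrays and its column medians were -3.30, -3.32 and -3.32 in normal liver and -3.29, -3.29 and -3.30 at 12 h.

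Spots marked as outliers were left out, spots averaged per probe and probes summed per miRNA. Signals were divided by each array's 75th percentile over 109 probes well above background on all 26 arrays, floored at the array's lowest probe signal well above background, and taken to log2. limma 3.58.1 (lmFit, eBayes) in R 4.3.3 was fitted to 9 groups with 144 miRNAs, with Benjamini-Hochberg adjustment within each contrast and a threshold of 0.05. The fit and test were tried on simulated miRNA values with known changes, and the steps before the fit were not. A miRNA detected on no array of a group has only a bound there.

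Named miRNAs are those called at 12 h against normal liver, those detected in 1 group alone, the 5 with the highest level, those the study's text names, in each list the member highest in level and the one with the largest difference, up to 3 each way in the other contrasts, and miR-21. The members and lists were chosen with earlier results of these data known. Lists were the families and clusters reported, cell type markers and the study's named miRNAs, described by counts and medians with no test. Arms in older names were matched to RefSeq names by hand. Alternatives changed scaling, floor, background correction, probe summary, filter, blocks, samples and threshold. Python 3.11.15 with numpy 2.4.6, pandas 2.3.3 and matplotlib 3.10.9 did the rest. The number of arrays, 3 a group, limits the precision.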

Additional observations from a re-analysis of the deposited data

Results flagged for a closer look

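The change from 12 h to 24 h after 2/3PH passed the test for 16 named miRNAs, 11 higher and 5 lower at 24 h. Of these, miR-18a and miR-466b entered through the group where they had to be the higher, against floors. Both are no support for a difference between the times. In log2, miR-101a rose by 0.62, miR-101b by 0.77, miR-106b by 0.78, miR-19a by 0.98, miR-19b by 0.94, miR-21 by 1.09, miR-27a by 0.58, miR-29b by 1.05, miR-34a by 0.78 and miR-93 by 0.97. For miR-18a the fit gave 1.34 against 12 h values that are floors. miR-146a gave -0.64, miR-26a -0.45, miR-466b -1.87 against 24 h values that are floors, miR-500 -1.69 and miR-511* -0.68. Over all 144 miRNAs tested, 17 were higher (11.8%) and 6 lower (4.17%), and the 23 fell to 0 with no scaling. Of the 16, miR-18a, miR-21, miR-29b, miR-466b, miR-500 and miR-511* were among the largest differences of this contrast and named for that. miR-29b, miR-101a, miR-101b and miR-19b were also named for being lower on the same 12 h arrays. miR-101a, miR-106b and miR-93 are among those the study picked on these samples. The count of 16 is therefore partly set by the choice. All 24 h arrays were on 1 slide that held no 12 h array, so slide and time cannot be told apart here.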

How the results depend on the processing

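Of the 10 calls, all 10 were shared with total signal scaling, a floor of 1 signal unit, slide as a random block and limma with a trend, 9 with quantile normalization, 8 with the software's gene signal, 8 over miRNAs detected on every array, 7 with the brightest probe and 7 with scan day as a fixed block. Counts called higher and lower at 12 h against normal liver were 1 and 9. They became 0 and 0 with no scaling, with the percentile over all probes, with normexp, with slide as a fixed block and in a fit of only the groups compared, 0 and 1 with the deposited values, where the 1 was miR-362*, 0 and 4 over miRNAs detected on at least 1 array, 0 and 8 with scan day as a fixed block, 4 and 9 with quantile normalization and 6 and 20 at an unadjusted p. Without the arrays of scan day 3, an alternative chosen after seeing the data like the values of scan day 1, they were 4 and 10, with 7 of the 10 calls shared. Leaving out single arrays gave 0 to 2 higher and 0 to 12 lower, and 0 of both without normal 2, normal 3 or m7. The median over all members moved from 0.02 to -0.243 with no scaling, -0.301 with the percentile over all probes and 0.139 with normexp. The comparison of 2/3PH with 1/3PH stayed at 0, with 9 at an unadjusted p and 0 to 0 without single arrays. That of 12 h with 6 h was 1 over miRNAs detected on every array, 15 at an unadjusted p and 0 to 3 without single arrays. The 23 calls between 24 h and 12 h became 0 with no scaling or the percentile over all probes, 2 with normexp, 13 with the deposited values and over miRNAs detected on every array, 12 in a fit of only the groups compared, 39 at an unadjusted p and 11 to 27 without single arrays; slide as a fixed block could not be fitted for them. The percent past the fold limits, 37.5, was 46.1 with no scaling, 53.1 with the percentile over all probes, 12.5 with normexp, 47.7 with the deposited values, 43.0 without scan day 3, 1.56 with limits of 0.5 and 2 and 35.9 to 47.7 without single arrays; blocks do not bear on it. Directions turned, all but that of miR-338 among miRNAs not called. With no scaling the log2 differences were let-7a -0.05, let-7e -0.04, let-7f -0.16, miR-122 -0.15, miR-130a -0.12, miR-23b -0.02, miR-25 -0.12, miR-451 -0.20, miR-500 -0.09, miR-511* -0.11, miR-92a -0.22 and miR-99a -0.02. With the percentile over all probes they were let-7a -0.11, let-7e -0.09, let-7f -0.22, miR-122 -0.20, miR-130a -0.17, miR-146a -0.05, miR-16 -0.02, miR-214 -0.03, miR-23b -0.08, miR-25 -0.18, miR-451 -0.26, miR-500 -0.14, miR-511* -0.17, miR-92a -0.28 and miR-99a -0.08. With normexp they were miR-106b 0.05, miR-107 0.02, miR-148b-3p 0.09, miR-181a 0.15, miR-338 0.05, miR-362* 0.10 and miR-93 0.17. miR-93 was 0.08 with the brightest probe and with the software's gene signal, miR-107 was 0.11 and miR-30a 0.00 with the deposited values and with quantile normalization, miR-26a was 0.01 and miR-500 -0.12 with slide as a fixed block, miR-500 was -0.13 with scan day as a fixed block, and without scan day 3 miR-451 was -0.02 and miR-93 0.02. Under quantile normalization miR-122 and miR-21 were 0.00, since the highest ranks take identical values on every array, and so was miR-21 between 24 h and 12 h. miR-122 was also 0.00 with the deposited values. Within-day values turned too for some miRNAs not called. Among them on scan day 1 were miR-466b -0.84, let-7e -0.02, miR-130a -0.09, miR-25 -0.11, miR-362* 0.12 and miR-19a 0.11. On scan day 3 they included let-7f -0.05 and miR-126 0.06. All scan day 1 values of miR-362* are floors, so its 0.12 is a difference between array floors and no turn of the miRNA. Without single arrays the range was -0.11 to 0.04 for miR-126, -0.28 to 0.06 for miR-181a, -0.05 to 0.03 for miR-26a, -0.11 to 0.02 for miR-26b, -0.33 to 0.47 for miR-451, -0.22 to 0.75 for miR-500, -0.01 to 0.34 for miR-511*, -0.15 to 0.17 for miR-92a and -0.09 to 0.04 for miR-93. Apart from single arrays, the called miRNAs kept their side of the threshold in 107 values, lost it in 77, moved beyond the spread in 3 untested within-day values and turned in 1. For the named miRNAs not called, 597 values kept direction and side, 7 came past the threshold and 24 within-day values moved beyond the spread. For those named between 24 h and 12 h, 67 values kept and 26 lost their side. The cause was not tested. No paired analysis was possible because only the normal livers carry replicate numbers in the labels. Signals near the floor, as for miR-338, limit what can be read as a fold.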

Other observations

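Other members lower on all 12 h arrays, singled out after their values were seen, include both arms of miR-378, a miRNA hosted by the metabolic coactivator gene Ppargc1b. miR-378 read -0.39, -0.40 and -0.65 in normal liver and -0.86, -1.64 and -1.18 at 12 h, with m7 the lowest (-0.75 ± 0.242, adjusted p = 0.0761). miR-378* read -2.80, -2.79 and -3.11 against -3.45, -4.11 and -3.23 (-0.70 ± 0.236, adjusted p = 0.0876). miR-210, a miRNA known to be induced by low oxygen, read -3.15, -3.29 and -3.45 against -4.22, -3.94 and -3.57 (-0.61 ± 0.208, adjusted p = 0.0876), with -0.28 on scan day 3. Its m3 value is a floor, so the fitted value and the -0.93 of scan day 1 depend on that floor. miR-28 gave -0.36 (adjusted p = 0.0773) and miR-151 gave -0.52 (adjusted p = 0.112). None of the 5 passed the test in the main setting. miR-28 passed with quantile normalization (-0.60, adjusted p = 0.0219), and over miRNAs detected on every array miR-28 (-0.36) and miR-378 (-0.75) passed (adjusted p = 0.0396 each). Each of the 5 also passed when some single array was left out: miR-28 without an array of 12 h after 1/3PH, miR-378 without m3, miR-210 and miR-378* without m12B, and miR-378, miR-378* and miR-151 without an array of 36 h after 1/3PH.

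The 2 arrays of scan day 3 differed from the other 4 in 7 miRNAs, which were undetected on normal 2 and m12B and detected on the rest, and 5 of the 7 are star forms. miR-1249, for example, read -3.48, -5.15 and -3.55 in normal liver and -3.07, -2.03 and -4.44 at 12 h. None of the 7 is a member, and the part of slide or scan day in this was not tested.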
